A study of Mus musculus with 8 samples.

Results

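The genes described here are 10 components of NF-κB signalling, chosen by name: the Rel-family subunits Nfkb1, Nfkb2, Rel, Rela and Relb, and the inhibitors Nfkbia, Nfkbie, Nfkbiz, Bcl3 and Tnfaip3. All 10 were found among the 53465 gene IDs of the count files, and all 10 passed the filter on low counts that left 14443 genes for testing. The libraries came from wild-type C57BL/6 CD4+ T cells of spleen and peripheral lymph nodes, polarized in culture into regulatory T cells (Tregs), kept with 50 µM BMS309403 (n = 4) or without it (control, n = 4). Before the drug was added, cells of both groups had spent 72 h on plate-bound anti-CD3 (5 µg/mL) in medium with TGF-β at 5 ng/mL, IL-2 at 100 U/mL, anti-CD28 at 0.5 µg/mL and antibodies that block IL-4, IL-12 and IFN-γ. BMS309403 blocks fatty acid-binding proteins and was used in this study against FABP5. The labels give neither a vehicle nor the length of exposure. It is not stated whether replicates were separate mice or cultures; the p-values therefore reflect only how far these samples spread, which could be technical.

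NF-κB is a group of transcription factors made of pairs of Rel-family proteins. RelA, c-Rel (from Rel) and RelB can activate transcription themselves, whereas Nfkb1 and Nfkb2 encode the precursors p105 and p100, which are processed to the DNA-binding subunits p50 and p52. In resting cells IκB proteins hold the dimers in the cytoplasm; signals such as those of the T cell receptor, CD28 and TNF receptors lead to phosphorylation and loss of IκB, and the dimers enter the nucleus. Several genes of the system, Nfkbia and Tnfaip3 among them, are themselves induced by NF-κB and so form feedback loops. In mice, c-Rel is required for normal induction of Foxp3, the lineage factor of Tregs.

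All 10 genes were higher in BMS309403 libraries than in control libraries, by between 1.13-fold and 1.61-fold. All 10 were called higher by edgeR's quasi-likelihood test at an adjusted p under 0.05, against 18.7% of all tested genes called higher and 36.8% called in either direction, and 0 were called lower, against 18.1% (0 also at an unadjusted p under 0.05, with DESeq2 and with limma-voom). The 4 treated libraries lay above the 4 control libraries without overlap for 9 of the 10 genes, against 17.7% of tested genes in that direction and 33.8% in either; the exception was Bcl3. The median log2 fold change of the 10 was 0.45, against 0.01 over all tested genes. The changes were of moderate size: 3 of the 10 (Nfkb2, Rel and Relb) were called with a change of at least 1.5-fold, against 9.64% of tested genes, and 0 of the 10 reached 2-fold, against 4.01%. Values are shares of each library's RNA, so in these bulk samples a change in the cells that make up a culture and a change in RNA per cell cannot be told apart.

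**Figure D1:**
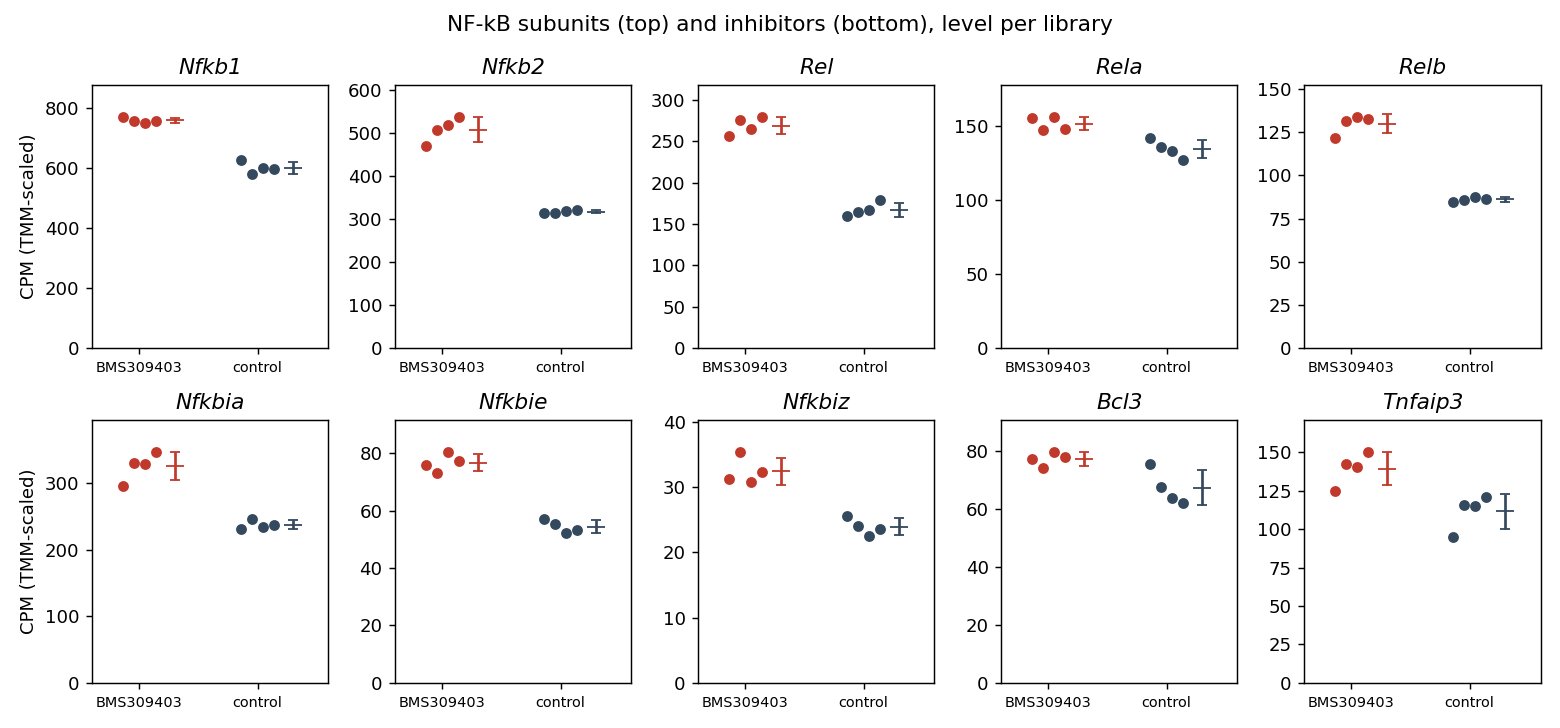
Level of each gene in CPM (read counts scaled by the TMM-adjusted library size; each axis starts at 0) in the 4 BMS309403 libraries (left of each panel, replicates 1 to 4) and the 4 control libraries (right), with the mean and SD beside the points. The groups lie apart in 9 panels, and in that of Bcl3 control replicate 1, at 75.6 CPM, lies above the lowest treated library, at 74.2 CPM.

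Several of the 10 genes are known NF-κB targets. The DNA around the transcription start sites is shown, from 250 bases before to 50 bases after the start in RefSeq (build GRCm38.p6). Windows were at hand for 7 of the 10 genes, namely Nfkb2, Rel, Rela, Nfkbia, Nfkbie, Bcl3 and Tnfaip3. The windows of 4 genes follow, 5′ to 3′ on the gene's own strand, with matches to the 10-base κB consensus on either strand in capitals. They lie at chr19:46304487-46304786 (plus strand) for the first of 3 Nfkb2 starts, chr11:23770920-23771219 (minus strand) for Rel, chr12:55492598-55492897 (minus strand) for Nfkbia and chr10:19015361-19015660 (minus strand) for Tnfaip3.
Nfkb2: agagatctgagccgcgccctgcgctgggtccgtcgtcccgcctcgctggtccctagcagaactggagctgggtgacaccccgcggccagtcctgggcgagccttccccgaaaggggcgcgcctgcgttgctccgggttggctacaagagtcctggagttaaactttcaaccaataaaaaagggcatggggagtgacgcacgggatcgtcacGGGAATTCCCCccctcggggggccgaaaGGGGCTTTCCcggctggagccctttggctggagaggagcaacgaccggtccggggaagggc
Rel: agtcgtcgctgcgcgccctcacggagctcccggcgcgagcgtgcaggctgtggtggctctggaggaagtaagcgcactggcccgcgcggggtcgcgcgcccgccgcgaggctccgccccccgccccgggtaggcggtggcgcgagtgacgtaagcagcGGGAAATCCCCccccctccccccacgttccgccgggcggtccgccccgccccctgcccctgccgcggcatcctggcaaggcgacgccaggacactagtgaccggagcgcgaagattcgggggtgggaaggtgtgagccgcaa
Nfkbia: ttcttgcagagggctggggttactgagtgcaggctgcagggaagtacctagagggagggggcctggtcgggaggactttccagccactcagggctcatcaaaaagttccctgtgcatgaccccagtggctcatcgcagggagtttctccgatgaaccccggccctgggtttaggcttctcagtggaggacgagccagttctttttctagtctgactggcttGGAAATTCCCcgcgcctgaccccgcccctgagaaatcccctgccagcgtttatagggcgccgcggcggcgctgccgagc
Tnfaip3: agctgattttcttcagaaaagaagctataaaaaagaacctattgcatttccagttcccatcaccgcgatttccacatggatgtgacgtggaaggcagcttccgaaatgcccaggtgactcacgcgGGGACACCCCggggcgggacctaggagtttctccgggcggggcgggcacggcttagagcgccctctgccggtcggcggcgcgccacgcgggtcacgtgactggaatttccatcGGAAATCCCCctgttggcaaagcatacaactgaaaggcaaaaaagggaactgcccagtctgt
Of the 7 genes, 6 had at least 1 match to the κB consensus, against 9.55% of all 27025 genes with a window. By window, 8 of 10 held a match, against 8.46% of all 32851. The genes were chosen by name, with known NF-κB targets among them, so these shares do not compare like with like. The Nfkb2 window held GGGAATTCCC, a perfect palindrome that begins 39 bases before the start site and overlaps a second match by all but 1 of its bases, and GGGGCTTTCC nearer the start. In Rel, GGGAAATCCC and an overlapping match lay 92 and 91 bases before the start, and in Nfkbia GGAAATTCCC lay 29 bases before it. The printed window of Tnfaip3 held GGGACACCCC and GGAAATCCCC, while the window of its other start (chr10:19011914-19012213) held no match. The matches of the windows not printed were GGGGGATTCC in Nfkbie and GGGAAGTCCC in Bcl3, which began 2 bases after the start. A further Nfkb2 match, GGGACTTTCC, lay in the windows of the other 2 starts, which overlap at that site, and GGAATGTCCC lay in 1 of them. Rela had no match in its window, which says nothing about sites elsewhere. A match is a run of letters and not a measured binding site. Whether the matches had a part in the changes of these genes was not tested.

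Among the subunits, Rel, Nfkb2 and Relb rose most. Rel (ENSMUSG00000020275, chromosome 11, 23736847 to 23770970, minus strand, GRCm38), which encodes c-Rel, had 257, 275, 265 and 279 CPM in BMS309403 replicates 1 to 4, against 159, 164, 166 and 179 CPM in control replicates 1 to 4. Every treated library was above every control library, with a wide gap between the groups. The means were 269 ± 10.1 and 167 ± 8.19 CPM (SD, n = 4 each), a fitted log2 fold change of 0.69 (SE 0.05, 95% interval 0.59 to 0.79; edgeR adjusted p = 4.98e-07).

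Nfkb2 (ENSMUSG00000025225, chromosome 19, 46304320 to 46312385, plus strand) encodes p100, the precursor of p52 and the inhibitor at the centre of the non-canonical pathway. Its level was 469, 509, 519 and 537 CPM in BMS309403 replicates 1 to 4, against 315, 314, 319 and 322 CPM in control replicates. The treated libraries spread over a wider range than the control libraries, whose coefficient of variation was 1.08%, against 5.65% in treated libraries. Nfkb2 was 1.60-fold higher (log2 fold change 0.68, SE 0.05, 95% interval 0.58 to 0.78; edgeR adjusted p = 5.06e-07). Its exons overlap those of Psd on the opposite strand over 299 bases, but Psd had at most 1.11 CPM in any library. They also overlap those of AC114539.1 on the opposite strand over 531 bases. That symbol matched no gene ID of the count files, so its level could not be given.

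Relb (ENSMUSG00000002983, chromosome 7, 19606217 to 19629438, minus strand) encodes the partner of p52 in the non-canonical pathway. It had 122, 132, 134 and 133 CPM in BMS309403 replicates 1 to 4, against 84.8, 85.6, 87.6 and 86.7 CPM in control replicates 1 to 4. The groups did not overlap, and treated replicate 1 was the lowest treated library, as it also was for Rel and Nfkb2. Relb was 1.51-fold higher (log2 fold change 0.59, SE 0.04, 95% interval 0.51 to 0.68; edgeR adjusted p = 5.53e-07).

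Nfkb1 (ENSMUSG00000028163, chromosome 3, 135584655 to 135691547, minus strand), which encodes p105 and p50, rose by less. It had 769, 757, 749.6 and 758 CPM in BMS309403 replicates 1 to 4, against 628, 581, 598 and 596 CPM in control replicates 1 to 4. The treated libraries lay close together, with a coefficient of variation of 1.05%, the lowest of the 10 genes in that group. Nfkb1 was 1.26-fold higher (log2 fold change 0.34, SE 0.04, 95% interval 0.25 to 0.42; edgeR adjusted p = 4.68e-05).

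Rela (ENSMUSG00000024927, chromosome 19, 5637483 to 5648130, plus strand) encodes RelA, also called p65, the main activating subunit of the canonical pathway. It had 155, 147, 156 and 148 CPM in BMS309403 replicates 1 to 4, against 142, 136, 133 and 127 CPM in control replicates 1 to 4. The groups did not overlap, but the lowest treated and the highest control library were close. Rela had the smallest fitted change of the 10 genes, 1.13-fold (log2 fold change 0.17, SE 0.04, 95% interval 0.08 to 0.27; edgeR adjusted p = 0.00901).

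The rises were thus unequal, and the ratios between subunits differed between the groups. Per kilobase of exon, the ratio of Rel to Rela was 0.681 to 0.777 in treated libraries and 0.463 to 0.580 in control libraries. The ratio of Relb to Rela was 0.622 to 0.711 in treated and 0.473 to 0.541 in control libraries. For Nfkb2 over Nfkb1 it was 1.61 to 1.87 in treated and 1.32 to 1.42 in control libraries. In each of the 3 ratios the 4 treated libraries lay above the 4 control libraries. The length used for a gene rescales such a ratio equally in all libraries and does not alter this order. These ratios were chosen after the fold changes were seen and are given without a test.

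**Figure D2:**
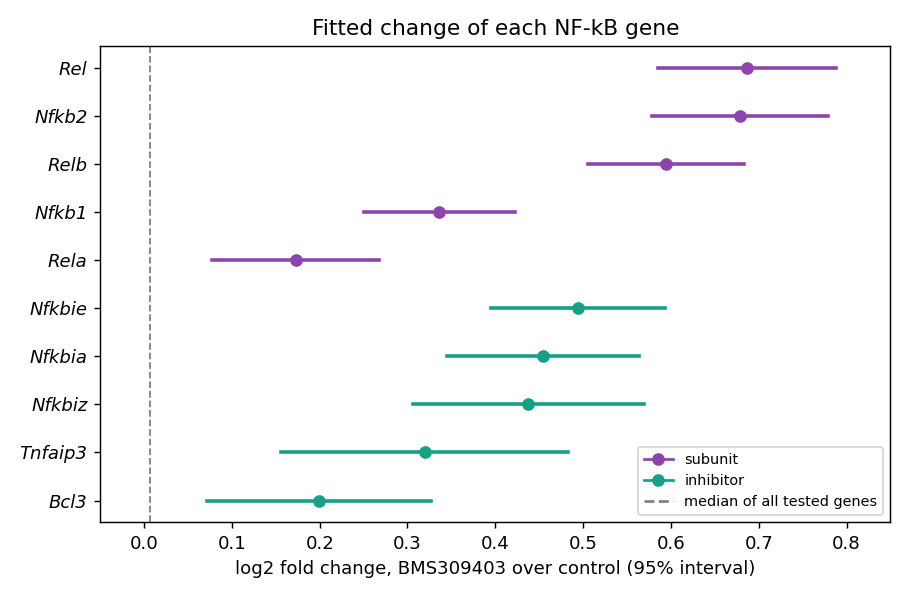
Fitted log2 fold change of BMS309403 over control for each gene (points) with its 95% interval (lines), subunits above and inhibitors below, each ordered by size; the dashed line is the median of all tested genes. The intervals of Rel, Nfkb2 and Relb (lowest bound 0.51) lie above those of Nfkb1 and Rela (highest bound 0.42), and all 10 intervals lie above 0.

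The classical IκB genes rose next to the subunits. Nfkbia (ENSMUSG00000021025, chromosome 12, 55489410 to 55492647, minus strand) encodes IκBα, which captures NF-κB dimers and is resynthesized after each round of activation. It had 296, 330, 328 and 347 CPM in BMS309403 replicates 1 to 4, against 231, 246, 234 and 237 CPM in control replicates 1 to 4. Treated replicate 1 was again the lowest of its group, and still above every control library. Nfkbia was 1.37-fold higher (log2 fold change 0.45, SE 0.05, 95% interval 0.35 to 0.56; edgeR adjusted p = 2.74e-05).

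Nfkbie (ENSMUSG00000023947, chromosome 17, 45555703 to 45563169, plus strand) encodes IκBε, a further cytoplasmic inhibitor. Its level was 76.0, 73.0, 80.4 and 77.4 CPM in BMS309403 replicates 1 to 4, against 56.9, 55.5, 52.1 and 53.3 CPM in control replicates 1 to 4. The treated libraries were all higher, with little spread in either group. Nfkbie was 1.41-fold higher (log2 fold change 0.49, SE 0.05, 95% interval 0.39 to 0.59; edgeR adjusted p = 6.19e-06).

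Nfkbiz and Bcl3 encode atypical IκB proteins, IκBζ and Bcl-3, which work in the nucleus and can raise as well as lower transcription with p50 or p52. Nfkbiz (chromosome 16, 55811375 to 55838899, minus strand) had 31.2, 35.4, 30.7 and 32.4 CPM in BMS309403 replicates 1 to 4, against 25.6, 24.1, 22.5 and 23.6 CPM in control replicates 1 to 4, with no overlap between the groups. Its log2 fold change was 0.44 (SE 0.06, 95% interval 0.31 to 0.57; edgeR adjusted p = 0.000156). Bcl3 (chromosome 7, 19808462 to 19822770, minus strand) had 77.2, 74.2, 79.7 and 77.9 CPM in treated replicates 1 to 4, against 75.6, 67.7, 63.9 and 62.1 CPM in control replicates 1 to 4. Control replicate 1 fell within the range of the treated libraries, while the other 3 control libraries lay below it. The log2 fold change of Bcl3 was 0.20 (SE 0.06, 95% interval 0.07 to 0.33; edgeR adjusted p = 0.0196), and this call was lost without control replicate 3 (adjusted p = 0.0698), control replicate 4 (0.0506) or treated replicate 3 (0.0536).

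Tnfaip3 (chromosome 10, 19000910 to 19015657, minus strand) encodes A20, a ubiquitin-editing enzyme that shuts down signalling upstream of the IκB kinase. It had 125, 142, 140.4 and 150.2 CPM in BMS309403 replicates 1 to 4, against 94.96, 116, 115 and 121 CPM in control replicates 1 to 4. Replicate 1 was the lowest library in each group, and the gap between the groups was narrow next to their spread. Tnfaip3 had the largest coefficient of variation of the 10 genes in each group, 7.60% in treated and 10.2% in control libraries. It was 1.25-fold higher (log2 fold change 0.32, SE 0.07, 95% interval 0.16 to 0.48; edgeR adjusted p = 0.00579).

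Levels can be set against each other only per length, here as CPM per kilobase of the union of a gene's exons. Nfkbia was the most abundant of the 10, at 202 ± 13.1 in treated and 147 ± 4.09 in control libraries (SD, n = 4 each). Nfkb2 followed with 111 and 69.3, then Nfkb1 with 62.9 and 49.8 and Rela with 49.3 and 43.7 in treated and control libraries. Nfkbiz was lowest, at 6.46 and 4.77. Below Rela the order changed: in treated libraries it ran Rel, Relb, Bcl3, Nfkbie, Tnfaip3 and Nfkbiz, and in control libraries Bcl3 stood ahead of Rel and Relb. With the longest transcript as length, in place of the union of exons, Bcl3 stood ahead of Relb and Relb ahead of Rel in both groups (41.8, 39.7 and 36.0 in treated libraries and 36.4, 26.3 and 22.4 in control libraries), so this change of order between the groups was not seen. Rel and Relb overlapped in each group, as did Relb and Bcl3 in treated libraries; other neighbours in the order by union of exons did not overlap.

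The place of Nfkb1 also depends on the length it is given, since its annotated exons add up to 12061 bases while its longest transcript has 4149. With the longest transcript as length it had 183 CPM per kilobase in treated and 145 in control libraries and stood above Nfkb2, at 132 and 82.6. In control libraries the ranges of Nfkb1 (140 to 151) and Nfkbia (147 to 156) then overlapped. Summed per kilobase of exon, the 5 subunits had 293 ± 7.47 in treated and 207 ± 2.13 in control libraries, and the 5 inhibitors 284 ± 15.0 and 213 ± 4.66 (SD, n = 4 each). For both sums the groups did not overlap. The ratio of inhibitors to subunits was 0.934 to 0.999 in treated and 1.00 to 1.07 in control libraries. With the longest transcript as length it was 0.648 to 0.703 in treated and 0.685 to 0.737 in control libraries, which overlap. Per kilobase of exon, Nfkbia alone over the 5 subunits was 0.651 to 0.718 in treated and 0.684 to 0.747 in control libraries. These ranges overlap too.

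**Figure D3:**
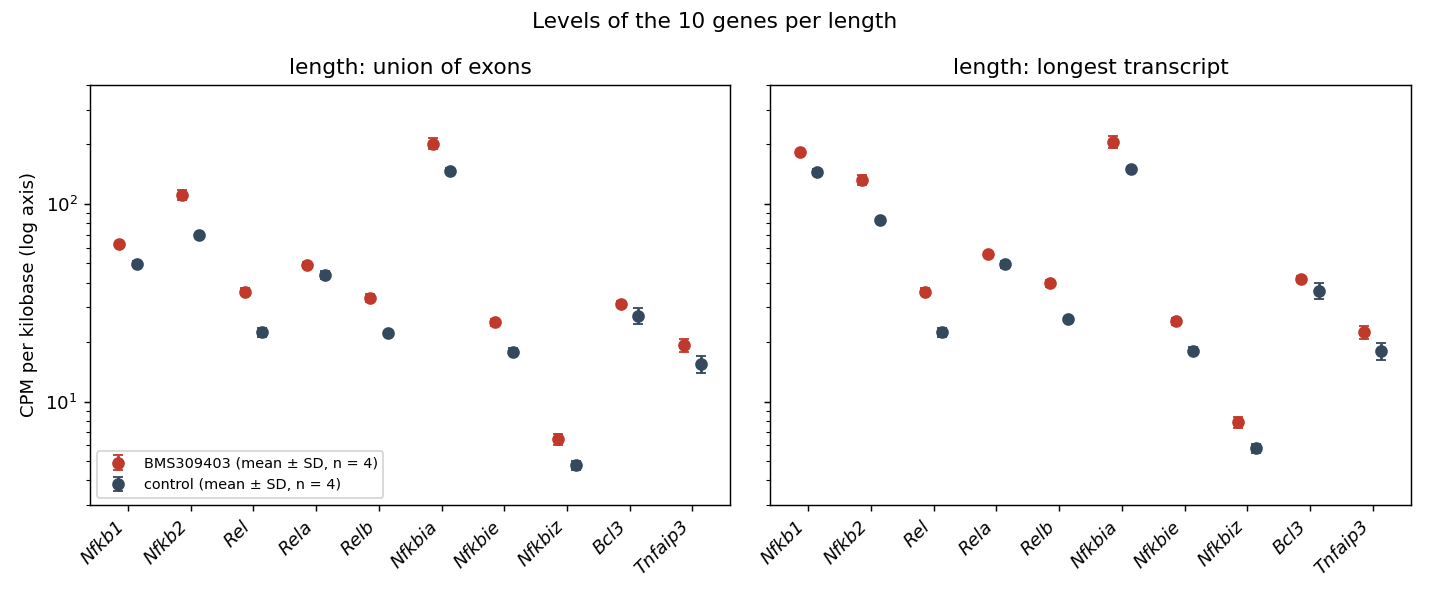
Levels of the 10 genes in CPM per kilobase on a log axis, in BMS309403 (left of each pair) and control libraries (right), as mean and SD of 4 libraries, with the union of exons (left panel) or the longest transcript (right panel) as gene length. Nfkbia has the highest mean and Nfkbiz the lowest in each panel, and Nfkb1 stands above Nfkb2 only with the longest transcript as length. With that length the control libraries of Nfkbia and Nfkb1 overlap.

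Genes around the 10 were examined by role. TNF receptors that signal to NF-κB moved in mixed directions: of 13 tested, 5 were higher, 5 were lower and 3 were not called (18.7% of all tested genes were higher and 18.1% lower), with a median log2 fold change of 0.16, against 0.01 over all tested genes. Leaving out a library gave 5 to 6 higher and 4 to 6 lower receptors. Tnfrsf8 (3.5 CPM in treated and 4.58 CPM in control libraries) lost its lower call without control replicates 2 and 3 (edgeR adjusted p = 0.0642 and 0.107). It also lost this call without treated replicates 2, 3 and 4 (0.101, 0.0512 and 0.0624). Without control replicate 1, Cd27 was called lower (0.0105) and Tnfrsf25 higher (0.0453). Tnfrsf11a, which encodes RANK, was 3.19-fold higher at 6.45 ± 0.693 CPM in treated and 2.04 ± 0.336 CPM in control libraries (SD, n = 4 each; edgeR adjusted p = 1.86e-06). The Treg-associated receptors GITR (Tnfrsf18) and OX40 (Tnfrsf4) were higher by 0.66 and 0.58 on the log2 scale, with 429 and 489 CPM in treated and 271 and 326 CPM in control libraries. Tnfrsf13c, which encodes the BAFF receptor of B cells, was 1.86-fold lower, with 3.74 CPM in treated and 6.97 CPM in control libraries. The summed level of 4 B cell markers (Cd79a, Cd79b, Ms4a1 and Pax5) was 3.77 to 5.77 CPM in treated and 4.54 to 6.78 CPM in control libraries, and its part in that result was not tested.

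Of the adaptors that link receptors to the IκB kinase, 10 of 15 were higher (18.7% over all tested genes), 1 lower (18.1%) and 4 not called, with a median log2 fold change of 0.17. Leaving out a library gave 7 to 11 higher adaptors. The 7 came without control replicate 3, where Prkcq, Traf3 and Birc2 lost their calls (edgeR adjusted p = 0.0981, 0.0977 and 0.0762). Each of these genes also lost its call in other such fits. Malt1, a protease and scaffold that works with BCL10 below antigen receptors, was higher (264 ± 8.56 CPM in treated and 176 ± 7.92 CPM in control libraries; log2 fold change 0.59, edgeR adjusted p = 1.22e-06). Traf1, Birc3 (cIAP2) and Traf6 were 1.41-fold, 1.38-fold and 1.36-fold higher. The lower gene, named after its values were seen, was Tradd, an adaptor of TNF receptors, with 26.5 CPM in treated and 32.2 CPM in control libraries. Bcl10 was not called (log2 fold change -0.08, 95% interval -0.18 to 0.02).

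Among the kinases, 7 of 11 were higher (18.7% over all tested genes), 1 lower (18.1%) and 3 not called, with a median log2 fold change of 0.19. Map3k8, which encodes the kinase TPL2 that p105 holds inactive, was 1.47-fold higher (29.1 ± 2.36 CPM in treated and 19.8 ± 2.30 CPM in control libraries; edgeR adjusted p = 0.000313). Ikbkb, the catalytic IKKβ of the canonical pathway, was 1.27-fold higher (adjusted p = 0.000688), while Map3k7, which encodes the upstream kinase TAK1, was 1.22-fold lower (adjusted p = 0.000395). Ikbke was 1.19-fold higher (edgeR adjusted p = 0.041), a call lost without control replicate 1 (adjusted p = 0.0699), 2 (0.0612) and 3 (0.0965) and without treated replicates 2 (0.117) and 4 (0.12). Chuk (IKKα) and Ikbkg (NEMO) were not called, with log2 fold changes of 0.14 (95% interval 0.02 to 0.26) and -0.06 (-0.16 to 0.03). Chuk was called higher with total-count scaling (edgeR adjusted p = 0.045), with the replicate block (0.00388) and when control replicate 1 (0.0303), control replicate 4 (0.0388) or treated replicate 3 (0.0405) was left out.

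Of 15 other IκB proteins and brakes of the pathway, 5 were higher, 1 lower and 9 not called, and the median log2 fold change was 0.09. The share called, 40.0%, was near the 36.8% of all tested genes. With the replicate number as a block, 8 were higher and 2 lower. Over all 14443 tested genes the block gave 3845 higher and 3728 lower, in place of 2694 and 2617. Tnip3, which encodes an A20-binding protein, was 1.87-fold higher at a low level (4.04 ± 0.271 CPM in treated and 2.16 ± 0.278 CPM in control libraries; edgeR adjusted p = 0.000122), and N4bp1 was 1.45-fold higher. Otulin, a deubiquitinase for linear chains, and Nfkbib (IκBβ) were 1.25-fold and 1.22-fold higher. The lower gene, named after its values were seen, was the ubiquitin ligase gene Peli1 (143 CPM in treated and 160 CPM in control libraries). Without control replicate 1, 2 were lower, Otud7b with an adjusted p = 0.0172 being the second. For Cyld, another deubiquitinase that limits NF-κB, the log2 fold change was 0.04 (95% interval -0.06 to 0.13).

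Known target genes of NF-κB rose in most cases: of 32, 31 were tested, 21 were higher (18.7% over all tested genes), 3 lower (18.1%) and 7 not called, with a median log2 fold change of 0.42. With the replicate number as a block 5 were lower, while 3728 of all 14443 tested genes were then lower, in place of 2617. Cxcl10, a chemokine that interferons also induce, was 10.5-fold higher, though at 3.31 ± 0.243 CPM in treated and 0.315 ± 0.205 CPM in control libraries. Gadd45b, a stress-induced regulator of MAP kinases, was 4.14-fold higher, with 47.2 ± 1.40 CPM in treated and 11.4 ± 1.89 CPM in control libraries (SD, n = 4 each; edgeR adjusted p = 1.93e-08). Csf2 (GM-CSF) was 3.76-fold higher at 2.20 and 0.587 CPM in treated and control libraries, and the chemokine gene Ccl20 was 2.44-fold higher at 7.79 and 3.23 CPM.

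The 3 lower targets, named after their values were seen, were Tnfrsf1b (TNFR2; 189 CPM in treated and 229 CPM in control libraries) and the survival genes Bcl2a1b and Bcl2a1d, near-identical copies whose reads may be shared. The call of Bcl2a1b did not hold when control replicate 2 (edgeR adjusted p = 0.0547), control replicate 3 (0.0741), treated replicate 2 (0.0780) or treated replicate 4 (0.0691) was left out. Tnf itself was not called, at a log2 fold change of 0.13 (95% interval -0.04 to 0.30), but was called higher with the replicate block (edgeR adjusted p = 0.0072) and without control replicate 1 (0.0175). Between them the lists share Cd40, Tnfrsf1b, Tnfrsf4, Tnfrsf9, Traf1, Birc3 and Tnip1, so their counts are not separate.

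**Figure D4:**
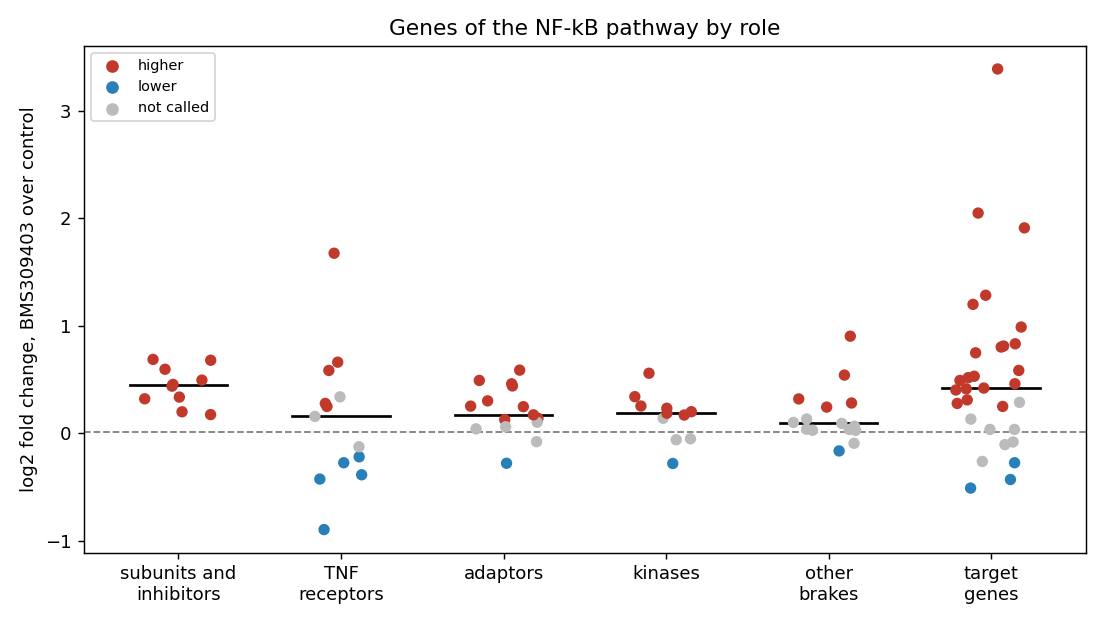
Fitted log2 fold change of BMS309403 over control for each tested gene of the lists (points; red called higher, blue called lower, grey not called), with each list's median (black line) and the median of all tested genes (dashed line). The medians are 0.45 for the subunits and inhibitors and 0.42 for target genes, against 0.09 to 0.19 for the other lists.

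By a measure of profile likeness (the root mean square distance of log2 CPM, each gene centred on its own mean over the 8 libraries), the nearest of 9461 protein-coding genes to Rel were Dennd5a (distance 0.0293) and Sp100 (0.0328). Those nearest to Nfkb2 were Aars (0.0261) and Tnfrsf18 (0.0397), and those nearest to Relb were Rhbdd1 (0.0132) and Slc2a6 (0.0323). Rhbdd1 had 52.2 ± 2.66 CPM in treated and 34.4 ± 0.543 CPM in control libraries (SD, n = 4 each), a log2 fold change of 0.60. The libraries share their 2 groups, so this likeness rests largely on the difference between the groups.

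The libraries held 32923433 to 44644485 counts, and each of the 10 genes had between 757 and 32655 counts per library. T cell and Treg markers were abundant: Foxp3 averaged 1247 ± 15.3 CPM in treated and 950.0 ± 55.6 CPM in control libraries (SD, n = 4 each; edgeR adjusted p = 6.05e-05). Il2ra was also higher (adjusted p = 0.00139) and Cd3e lower (190.7 CPM in treated and 263 CPM in control libraries; adjusted p = 2.54e-05), while Ctla4 and Cd4 were not called (log2 fold changes 0.06 and -0.06). Fabp5, the gene of the intended target, had 152.5 ± 18.3 CPM in treated and 178 ± 23.7 CPM in control libraries (log2 fold change -0.22, edgeR adjusted p = 0.0934), and was called without control replicate 4 (adjusted p = 0.0288), without treated replicate 1 (0.0368), with no filter on low counts (0.0229) and with the replicate block (1.29e-05). Marker lists of other cells summed, in treated and control libraries, to 10.2 to 14.9 and 9.89 to 14.3 CPM for CD8 T cells, 0.835 to 3.13 and 1.87 to 3.42 CPM for myeloid cells, and at most 0.0509 and 0.0249 CPM for NK cells, with Ncr1 and Klra8 at 0. Of the myeloid markers, Adgre1 was called lower at a low level (0.137 CPM in treated and 0.565 CPM in control libraries; edgeR adjusted p = 0.00094). Lyz2 (1.24 and 1.41 CPM) was not called. Itgam (0.0809 and 0.317 CPM), Csf1r (0.2 and 0.117 CPM) and Cd14 (0.276 and 0.141 CPM) did not pass the filter on low counts. Erythroid markers summed to at most 0.162 CPM in treated and 0.403 CPM in control libraries. The dendritic cell list was higher, at 8.17 to 11.5 CPM in treated and 3.93 to 4.42 CPM in control libraries, nearly all of it Zbtb46 (8.89 and 3.60 CPM), while Itgax, Flt3, Xcr1 and Siglech each stayed at or under 0.347 CPM on average in either group. Stromal and endothelial markers summed to 96.4 to 104 CPM in treated and 113 to 122 CPM in control libraries, nearly all of it Pecam1 (99.1 and 117 CPM), while Col1a1 and Pdgfrb were each under 1 CPM on average in either group. Mitochondrial transcripts took 0.484% to 0.608% of counts in treated and 0.639% to 0.781% in control libraries, and the part of these differences in the results was not tested.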

How the data were processed

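RNA of 8 libraries (4 BMS309403, 4 control) was sequenced from stranded poly(A)-selected libraries, per the labels' protocols. The files deposited by the authors hold whole-number read counts per Ensembl gene, not normalized; STAR, featureCounts, DESeq2 and deepTools and the build GRCm38 are named in the submitters' processing notes, and versions, strand setting and treatment of multi-mapped reads are not given in the sources used here. Symbols and coordinates came from GENCODE M21 (GRCm38), which matched 53360 of 53465 IDs. The quasi-likelihood F-test of edgeR 4.0.16 (under R 4.3.3) was applied to all genes left by filterByExpr, after TMM normalization, with treatment as the only term and Benjamini-Hochberg adjustment over 14443 genes; every adjusted p in the text is from this test unless another is named, and a gene under 0.05 was called. Each SE is the log2 fold change divided by the square root of F, and 95% intervals use the total (prior plus residual) degrees of freedom. The main fit was also run on simulated counts with a dispersion common to all genes and no pairing. Its outcome is not given here, and the alternative fits were not simulated.

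The members and lists were chosen with earlier results of these data known. Lists are described by counts and medians; some of their genes are not reported here and were left out of those counts and sums. Named genes are the 10 members, up to 4 called genes per pathway list by size of change, other list members where their values are given, label checks, Fabp5 and, for the 3 members with the largest change, the 2 genes nearest in profile among those with at least 5 CPM. Marker lists covered CD8 T, B, myeloid, dendritic, NK, erythroid and stromal or endothelial cells. Within a group, libraries differed beyond sampling noise (chi-square per degree of freedom 3.08 to 24.2), so none was taken as a second sequencing of another library. This measure cannot tell separate mice from separate cultures or preparations. Same-numbered libraries deviated together (correlation across genes 0.524, 0.214, 0.200 and 0.390 for numbers 1 to 4). Treated replicates 1, 3 and 4 correlated best with the control of the same number, but treated replicate 2 with control replicate 4. Each control replicate correlated best with the treated library of its own number. This was read as a possible pairing of the samples, which the labels do not state. The replicate block was an alternative fit, as were other scalings, no filter, DESeq2 (1.42.0), limma-voom (limma 3.58.1) and leaving out each library.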

Additional observations from a re-analysis of the deposited data

Results flagged for a closer look

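Relb in BMS309403 replicate 1 stood apart from the rest of its group, at 121.9 CPM, while the other 3 treated libraries had between 132 and 134 CPM. It was the single far sample among 26 sets of 4 libraries examined in this way (the 10 genes, the summed subunits, the summed inhibitors and their ratio, in each group); chance alone flags about 1 in 20 such sets. Without this library the log2 fold change of Relb was 0.62 (edgeR adjusted p = 4.20e-07).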

How the results depend on the processing

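All 10 genes kept their direction under every alternative run (median-of-ratios or total-count scaling, no filter on low counts, DESeq2, limma-voom, the replicate block and leaving out each of the 8 libraries). All 10 were called in each fit on all 8 libraries, and 9 or 10 when a library was left out: Bcl3 had a log2 fold change between 0.16 and 0.26 and lost its call without control replicate 3 (0.17), control replicate 4 (0.16) or BMS309403 replicate 3 (0.18). With the replicate block, 8 of the other brakes were higher and 2 lower, in place of 5 and 1. Of the target genes, 5 were then lower in place of 3. Calls over all tested genes rose as well, to 3845 higher and 3728 lower from 2694 and 2617. The block changed no call of the 10 genes. In every same-numbered pair each of the 10 genes was higher in the treated library. For the 9 genes whose groups did not overlap, any pairing would give this. For Bcl3 the log2 ratio within the 4 pairs was 0.03 to 0.33. Leaving out single libraries gave 1 to 2 lower brakes, the 2 without control replicate 1. It gave 7 to 11 higher adaptors, 6 to 8 higher kinases, 5 to 6 higher receptors and 4 to 6 lower receptors. Of the target genes, 21 to 23 were then higher and 2 to 4 lower. The cause of these shifts was not tested. Over all genes, 2078 to 2939 were higher and 2007 to 2779 lower when a library was left out. Total-count scaling gave 2946 higher and 2365 lower genes, in place of 2694 and 2617. With the longest transcript as length, the summed subunits came to 446.5 CPM per kilobase in treated and 325.5 in control libraries, and the summed inhibitors to 303.7 and 228.7. Depth was not limiting for the 10 genes, each with at least 757 counts per library, while Csf2 and Cxcl10 rest on 87 and 47 counts over the 4 control libraries (356 and 537 in treated libraries).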
